A study of Mus musculus with 12 samples.

Results

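The libraries described here are 3 of 12 made from mouse cortex, picked because their count of Penk (preproenkephalin, the precursor of the enkephalin peptides) exceeded 60 on the counts-per-million (CPM) scale, relative to the library's total count. They are WT replicates 2, 3 and 4, and they are set against the other 9 libraries over all genes. The series has 3 groups of 4 libraries. WT mice were Grn+/+, with both copies of the mouse progranulin gene. KO mice were Grn-/-, and MUT mice carried Grn-/- together with an allele labelled GRNmEx5, in a line made to model a human GRN deletion. The 3 picked libraries came from Grn+/+ mice labelled male and 375 days old. WT replicate 1 was labelled female and 287 days old, the KO mice were 282 to 308 days old and the MUT mice 272 to 309 days old. Of the 9 libraries below the threshold, 3 were labelled male and 6 female. Age, genotype and tissue content therefore cannot be told apart within the contrast of the 3 libraries with the rest. WT replicate 1 shares the genotype of the 3, but neither their age nor their labelled sex. Within the WT group, labelled sex therefore separates the same libraries as the choice by Penk. Labelled sex was also unbalanced in this contrast, which is not adjusted for it. The labels do not say that each library is a separate animal, so every test below measures the spread between these libraries only.

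The striatum lies beneath the cortex and is reached by cutting through the white matter that separates them. Nearly all of its neurons are GABAergic projection neurons, called medium spiny neurons, which receive dopamine from the midbrain. Those of the direct pathway carry the dopamine receptor Drd1 and make the peptide precursors Tac1 and Pdyn. Those of the indirect pathway carry the dopamine receptor Drd2 and the adenosine receptor Adora2a and make Penk. Both kinds use a set of cAMP signalling proteins, of which DARPP-32 (Ppp1r1b) is the best known. Cortical neurons express some of these genes at a lower level, so a cortex library is not empty of them.

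By the measure used for the choice, Penk (Entrez 18619; mm10 chromosome 4, 4133536 to 4138445, minus strand) stood at 88.2 CPM of the unadjusted library total in WT replicate 2, 125 in WT replicate 3 and 262 in WT replicate 4. The nearest library below the threshold was KO replicate 3 at 41.8, and the lowest was WT replicate 1 at 13.9. From here on, CPM is relative to a library size adjusted by TMM, edgeR's scaling for differences in RNA composition. On that scale Penk was 89.4, 128 and 264 CPM in WT replicates 2, 3 and 4, against 14.1 in WT replicate 1, 16.6 to 28.8 in the 4 MUT libraries and 18.3 to 40.8 in the 4 KO libraries. The 3 libraries were not alike in Penk. The excess over the mean of the 9 other libraries was 27.7% as large in WT replicate 2 as in WT replicate 4, and 43.7% as large in WT replicate 3.

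Because the libraries were chosen by a measured level, all genes of this contrast are described and none is tested. A gene is called higher where all 3 libraries lay above all 9 others and the mean CPM was at least 1.5 times as high, and lower in the mirrored case. In bulk tissue, more cells of a type and more RNA per cell cannot be told apart. Library totals were 16381221 to 20782195 counts, and 15298 of the 27179 genes in the table passed the low-count filter. One picked library, WT replicate 4, also held choroid plexus RNA, as did KO replicate 3 and MUT replicate 1: transthyretin (Ttr), the leading choroid plexus transcript, was at 597, 1838 and 1283 CPM there and at or under 42.7 elsewhere. In all 12 libraries the sex-linked transcripts were opposite to the labelled sex. Labelled sex therefore splits the libraries as these transcripts do, with the names male and female exchanged. The reason for this was not tested.

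Genes of dopamine and cAMP signalling in projection neurons were mostly higher. Of 18 such genes tested, 14 were called higher and 0 lower, with a median log2 ratio of 1.37, where the median over all genes was -0.01. Over all genes 1.81% were called higher and 1.12% lower. These counts describe libraries picked through a gene of the same cells and are not support for the label. Ppp1r1b (Entrez 19049; mm10 chromosome 11, 98348738 to 98357795, plus strand) measured 155, 253 and 443 CPM in WT replicates 2, 3 and 4, and 59.7, 68.3 and 116 CPM as the lowest, median and highest of the other 9. The 3 libraries lay above all others and in the order of Penk, at a ratio of mean CPM of 3.87.

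Most other signalling genes followed the same order. Scn4b, a sodium channel beta subunit of fast-firing and spiny neurons, measured 176, 316 and 472 CPM in WT replicates 2, 3 and 4 and 35.8 to 97.9 in the rest. Rgs9, which speeds the shut-off of G protein signals, measured 53.8, 91.0 and 201 CPM against 23.9 to 42.9. In both genes WT replicate 2 was nearer to the highest of the 9 libraries than to WT replicate 4.

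The dopamine-coupled G protein and its enzyme were measured at high depth and separated the libraries by less. Adcy5, the main adenylyl cyclase of the striatum, measured 203, 280 and 435 CPM in WT replicates 2, 3 and 4 against 108 to 141 in the rest. Gnal, the alpha subunit of the G protein that couples dopamine receptors to that cyclase, measured 240 (WT replicate 2), 245 (WT replicate 3) and 378 CPM (WT replicate 4) against 132 to 145. Its partner Gng7, a gamma subunit, measured 120, 162 and 286 CPM against 71.7 to 114. All 3 genes were about 2-fold higher, with ratios of mean CPM of 2.36, 2.06 and 1.98. Pde1b, a phosphodiesterase that breaks down cyclic nucleotides, was 2.16-fold higher, and Rasd2, a small GTPase of striatal neurons, 2.83-fold. Syndig1l, a synaptic membrane protein, had the largest ratio of the list at 6.83, with 17.7, 39.8 and 73.1 CPM against 4.52 to 9.92.

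Of the signalling list, 4 genes were not called higher. Pde10a, the phosphodiesterase that is densest in the striatum, measured 117, 222 and 462 CPM in WT replicates 2, 3 and 4, and 59.9 to 128 CPM in the other 9. WT replicate 2 thus lay inside the range of the other libraries, while WT replicates 3 and 4 lay above it. Rasgrp2, an exchange factor for small GTPases, overlapped in the same way, with 31.1 CPM in WT replicate 2 and 32.4 CPM in the highest of the 9. Arpp21, a cAMP-regulated phosphoprotein also found in cortex, did not overlap but was 1.28-fold higher. Ptpn5, a striatum-enriched tyrosine phosphatase also found in cortex, was 1.17-fold higher and overlapped.

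Among the receptor and peptide genes, markers of both output pathways were higher. For the direct pathway, 2 of 8 tested genes were called higher, with a list median log2 ratio of 0.78. Drd1 measured 27.4, 40.5 and 80.4 CPM in WT replicates 2, 3 and 4, against 8.94 to 15.1 CPM in the rest, a ratio of 4.36. Tac1, the precursor of substance P, measured 21.8, 30.3 and 57.8 CPM against 10.9 to 16.9, a ratio of 2.92. Neither gene overlapped between the 3 libraries and the 9. Pdyn (prodynorphin) measured 9.12, 12.8 and 17.1 CPM against 7.01 to 10.2, so that WT replicate 2 again fell inside the others' range. Slc35d3, a membrane protein needed for the surface transport of Drd1, had a ratio of 5.32 with 2.73, 5.58 and 12.8 CPM and overlapped through KO replicate 3 at 3.16. Isl1, a transcription factor of the direct pathway, did not pass the low-count filter. The muscarinic receptor Chrm4 (ratio 1.06) and the transcription cofactor Eya1 (ratio 0.82) were not higher.

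For the indirect pathway, 5 of 7 genes were called higher, Penk among them, with a list median log2 ratio of 2.36. Drd2 (Entrez 13489; mm10 chromosome 9, 49340662 to 49407214, plus strand) measured 6.67, 22.9 and 41.1 CPM in WT replicates 2, 3 and 4. Its lowest, median and highest values in the other 9 libraries were 0.84, 1.38 and 5.32 CPM, the highest being KO replicate 3. Adora2a (Entrez 11540; mm10 chromosome 10, 75316943 to 75334788, plus strand) measured 16.3, 34.9 and 74.5 CPM in WT replicates 2, 3 and 4 and 1.98, 2.90 and 6.76 CPM at the lowest, median and highest of the rest. These were the highest ratios among called genes with a mean of at least 5 CPM, 13.5 for Drd2 and 12.8 for Adora2a. The orphan receptors Gpr6 (ratio 5.15) and Gpr52 (ratio 3.80) were called higher too. Sp9, a transcription factor of the indirect pathway, was 1.58-fold higher but its libraries overlapped, and the kainate receptor Grik3 was 1.16-fold higher with overlap. Whether the 2 pathways differed in their ratios was not tested.

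**Figure D1:**
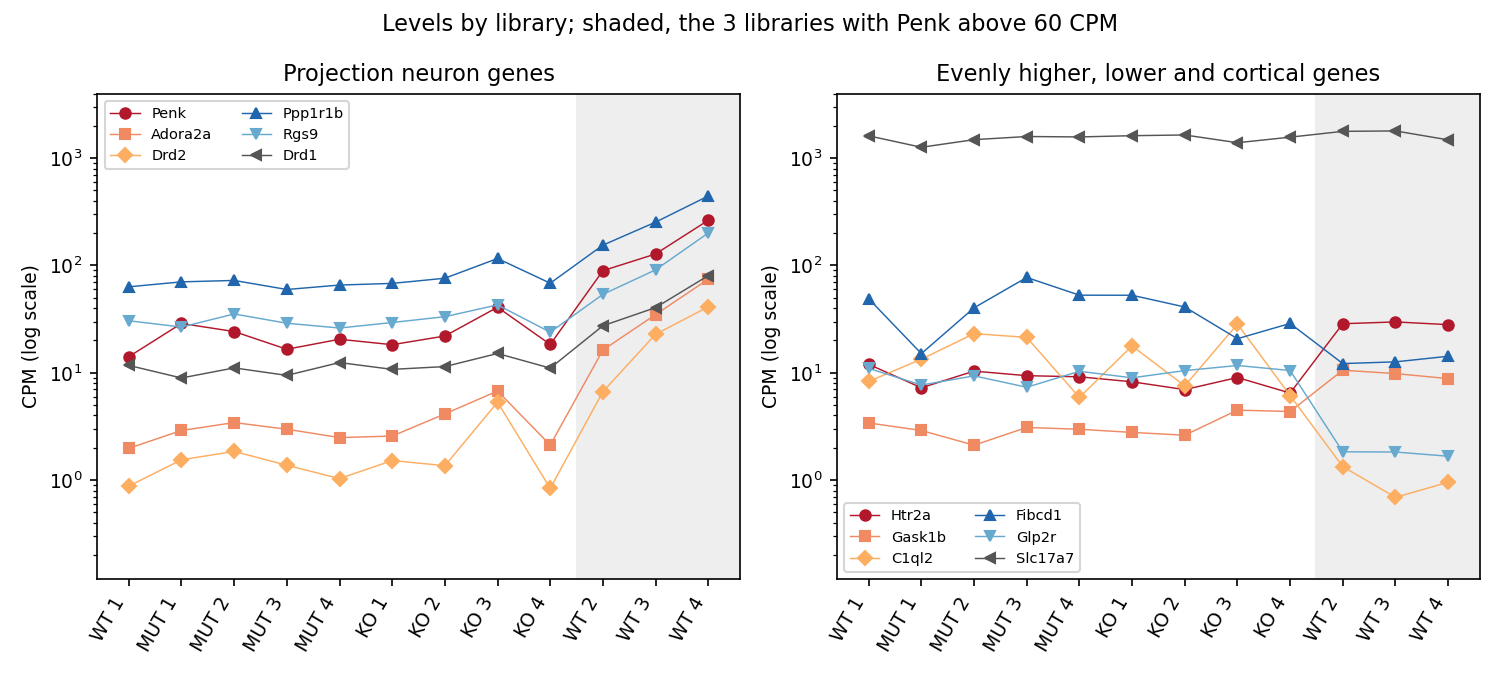
Normalised level (CPM, log scale) of 6 projection neuron genes (left) and of 6 other genes (right) in each of the 12 libraries, with 1 point per library, joined by lines only to guide the eye, and the 3 libraries with Penk above 60 CPM shaded. The 6 genes at left climb from WT replicate 2 to WT replicate 4 (Penk 89.4, 128 and 264 CPM), whereas Htr2a and Gask1b at right are level across the shaded libraries (Htr2a 28.6, 29.8 and 28.1 CPM), as are the lower genes Glp2r and Fibcd1.

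Transcription factors that specify striatal neurons divided into a higher and an unseparated part. Of 11 tested, 5 were called higher and 0 lower, with a list median log2 ratio of 0.50. Rxrg, a retinoid receptor, measured 10.01, 28.7 and 39.8 CPM in WT replicates 2, 3 and 4 against 2.25 to 3.90 in the rest, a ratio of 8.96. Rarb, its partner retinoic acid receptor, measured 13.8, 19.8 and 32.9 CPM against 5.30 to 10.3. Both separated the 3 libraries from all others. Meis2, a homeobox gene of the lateral ganglionic eminence from which the striatum forms, measured 136 (WT replicate 2), 149 (WT replicate 3) and 190.05 CPM (WT replicate 4) against 85.2 to 98.5. Six3, a homeobox gene of developing indirect-pathway neurons, had the list's highest ratio, 16.5, but rests on few counts (3.23, 6.32 and 21.2 CPM against 0.06 to 1.94). The factors not called showed smaller ratios and overlap: Foxp2 1.42, Dlx5 1.31, Foxp1 1.27, Bcl11b 1.20, Zfp503 1.14 and Ikzf1 1.06. Their mean in the other 9 libraries ran from 4.04 CPM (Dlx5) to 116 CPM (Bcl11b).

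Lists for neighbouring structures were mixed. In the cholinergic list, 2 of 4 tested genes were called higher, the acetylcholine-synthesising enzyme Chat and the choline transporter Slc5a7. Chat measured 1.28, 3.41 and 5.67 CPM in WT replicates 2, 3 and 4 against 0.17 to 0.66, and Slc5a7 measured 2.17, 5.58 and 11.2 CPM against 0.90 to 2.01. Both ran in the order of Penk, although Lhx8 and Gbx2 of the same list did not pass the low-count filter. Of the ventral striatum list only Cartpt, a peptide precursor, was called higher among 7 tested (6.84, 4.20 and 4.71 CPM against 2.81 to 3.74), and its highest library was WT replicate 2. The striosome and matrix list had 0 of 6 called in either direction, the pallidal list 0 of 2, the midbrain dopamine list 0 of 3 and the subventricular neuroblast list 0 of 8. In the septal list 0 of 5 were called higher and Trpc4, a cation channel, was called lower. In the claustrum and insula list Oprk1, the kappa opioid receptor, was called higher among 6 tested, with 13.3, 11.3 and 20.9 CPM against 1.98 to 4.07.

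**Figure D2:**
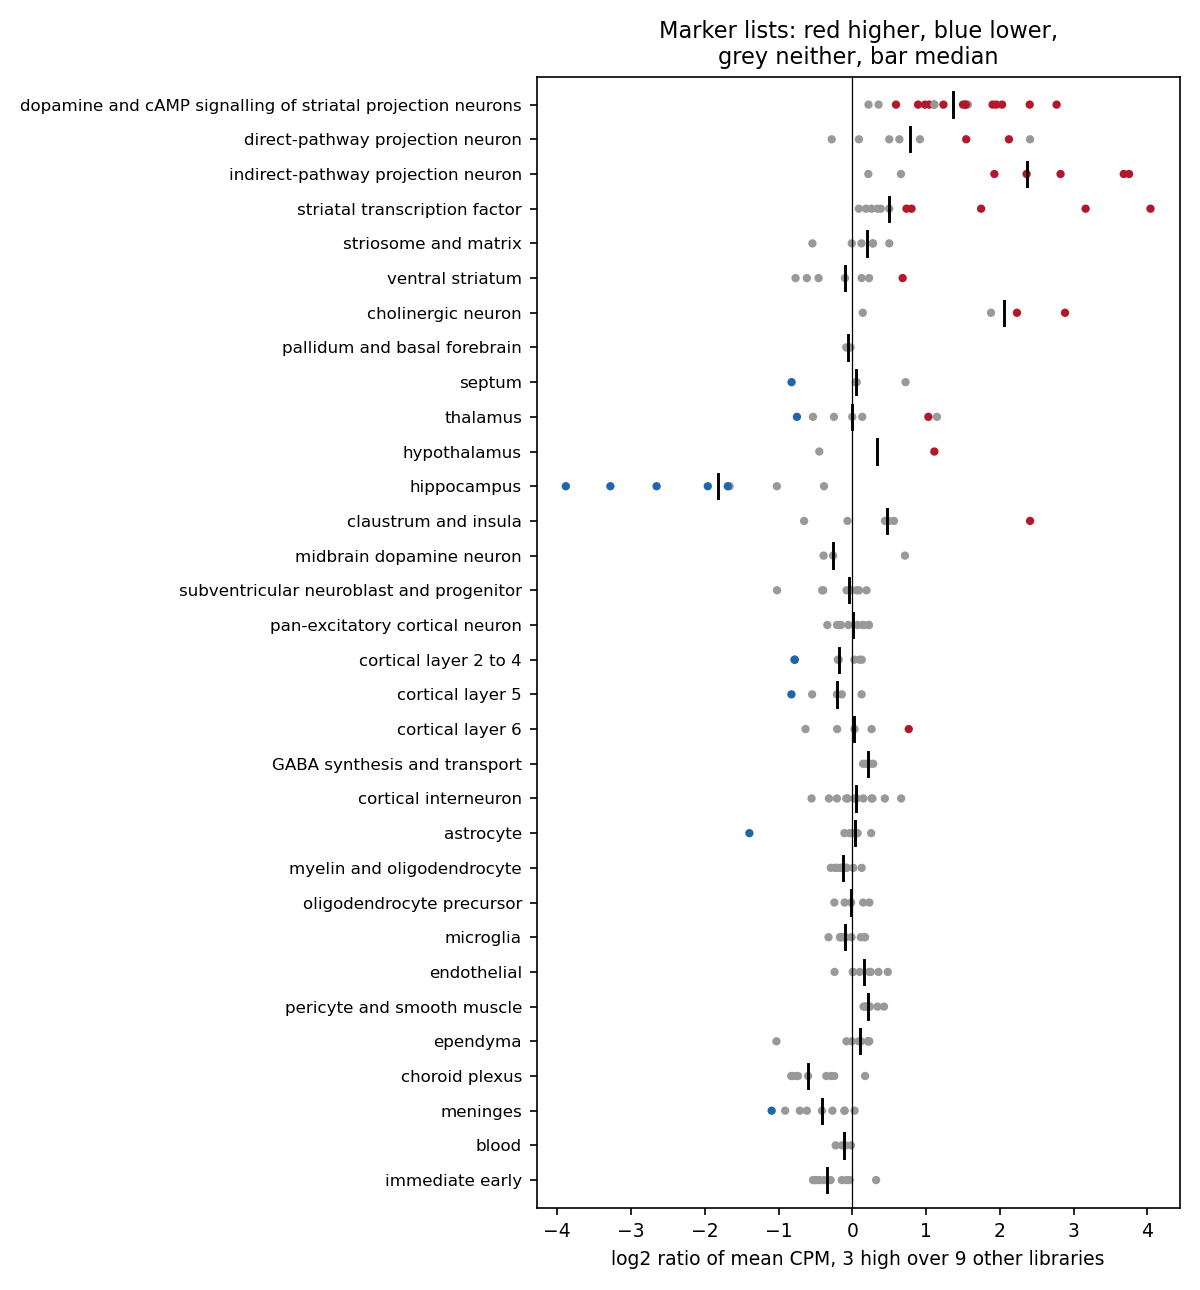
Log2 ratio of mean CPM in the 3 libraries over the mean in the other 9 for each tested member of 32 marker lists, with 1 point per gene, red for called higher, blue for called lower, grey for neither, and a black bar at the list median. The signalling and indirect-pathway lists lie furthest right among the projection neuron lists (medians 1.37 and 2.36), and the hippocampal list lies furthest left (median -1.82).

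Genes outside the projection neuron lists also separated the 3 libraries. In all, 277 genes were called higher and 171 lower, and 113 and 91 of them differed at least 2-fold. Without a minimum ratio, 1104 genes (7.22%) lay above and 1046 genes (6.84%) below all 9 others. Of the 276 higher genes other than Penk, 25 belonged to the 4 projection neuron lists, which is 9.06%. The lists are short, with 43 genes besides Penk among the 15298 tested, and 58.1% of those 43 were called higher. Predicted or unnamed genes made up 22 of the higher and 14 of the lower. Median summed exon length was 3024 bases in the higher genes, 2709 in the lower genes and 2871 over all genes.

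**Figure D3:**
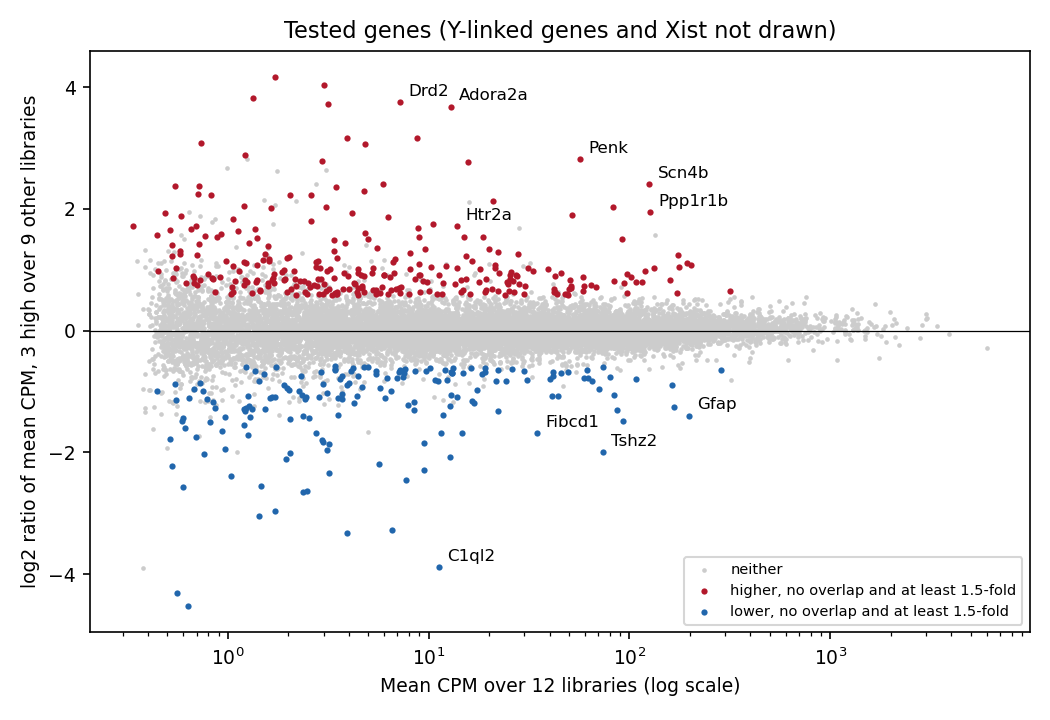
Log2 ratio of mean CPM in the 3 libraries over the other 9 (vertical) against mean CPM over the 12 libraries (horizontal, log scale), with 1 point per tested gene, 277 called higher in red, 171 called lower in blue and the rest in grey; Y-linked genes, Xist and genes at 0 in all 3 libraries are not drawn. Drd2 and Adora2a stand highest among the labelled genes (log2 ratios 3.75 and 3.68) and C1ql2 lowest (-3.88).

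Within the 3 libraries the projection neuron genes followed the gradient of Penk. Of the 43 listed genes tested besides Penk, 34 were ordered WT replicate 2, then 3, then 4, from low to high, where 14.0% of all tested genes had that order. Of the 25 called higher, 23 had it (the exceptions were Gpr149 and Dlx6), and so did 11 of the 18 that were not called higher. In the 25 genes the median excess over the 9 other libraries, as a share of that in WT replicate 4, was 48.3% in WT replicate 3 and 21.6% in WT replicate 2. Both shares lie near those of Penk itself, which were 43.7% and 27.7%.

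The other higher genes followed that gradient less often than the listed genes did. Of these 251 genes, 73 (29.1%) had the order of Penk, a larger share than the 14.0% of all tested genes. The median excess of the 251, as a share of that in WT replicate 4, was 97.5% in WT replicate 3 and 84.7% in WT replicate 2. In 136 of the 251 the excess in WT replicate 2 was at least 80% of that in WT replicate 4, and 0 of the 25 listed genes reached this. The lower and upper quartiles of these genes were 56.7% and 122% for WT replicate 2. In the whole set of 277, 97 genes had the order of Penk, 137 were highest in WT replicate 4 (34.6% of all tested genes were) and 76 were lowest in it. The median coefficient of variation over the 3 libraries was 51.4% in the listed higher genes, 16.1% in all higher genes, 18.6% in the lower genes and 7.19% in all tested genes. The demand that WT replicate 2 lie above all 9 others works against steep gradients, as Pde10a, Rasgrp2, Pdyn and Slc35d3 show, so counts of ordered genes among the called ones depend on it.

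**Figure D4:**
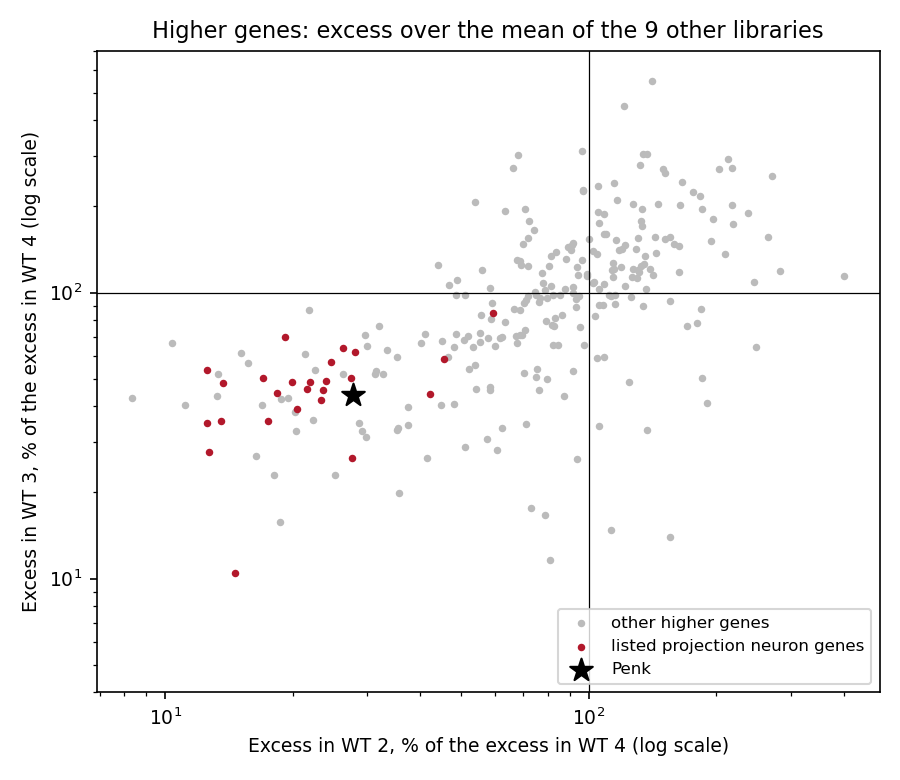
Excess over the mean of the 9 other libraries in WT replicate 2 (horizontal) and in WT replicate 3 (vertical), each as a percentage of the excess in WT replicate 4 (log scales), with 1 point per gene called higher, projection neuron list members in red, Penk as a star, the rest in grey, and lines at 100%. List members lie at the lower left around Penk (27.7% and 43.7%), while the grey points centre near both lines (medians 84.7% and 97.5%).

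Among genes with a mean of at least 5 CPM, those whose levels were most like Penk over the 12 libraries, by Pearson's r of log2 CPM, were Scn4b (0.99), Adora2a (0.98), Ppp1r1b (0.98), Drd2 (0.98), Syndig1l (0.97), Rarb (0.97), Lin28b (0.97) and Hlcs (0.97). These values describe all 12 libraries, include the 3 that were picked on Penk and share each library's depth and composition, so no test is attached. Lin28b, an inhibitor of let-7 microRNA maturation, and Hlcs, the enzyme that attaches biotin to carboxylases, are in none of the lists. Lin28b measured 9.57, 10.1 and 12.0 CPM in WT replicates 2, 3 and 4 against 4.34 to 6.32, a shallower slope within the 3 libraries than that of Penk.

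Higher genes that were level across the 3 libraries, or lowest in WT replicate 4, included Htr2a, a serotonin receptor of cortical pyramidal neurons. It measured 28.6, 29.8 and 28.1 CPM in WT replicates 2, 3 and 4 and 6.48, 9.03 and 12.0 CPM at the lowest, median and highest of the rest. Gask1b, a Golgi-associated protein, measured 10.6, 9.83 and 8.83 CPM against 2.12 to 4.49. Both genes were about 3-fold higher, with ratios of 3.29 and 3.05, and neither overlapped. Tfap2d, a transcription factor of the AP-2 family, Aldh1a7, an aldehyde dehydrogenase, Phex, an endopeptidase, and Kiss1, the precursor of kisspeptin, had the same pattern at under 2.1 CPM in every library, with ratios of 3.15 to 5.17. St6gal2, a sialyltransferase, measured 12.6, 12.5 and 13.9 CPM against 4.78 to 8.36.

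Genes of the hippocampus were lower in the 3 libraries. Of 8 tested, 5 were called lower and 0 higher, with a median log2 ratio of -1.82. C1ql2, a synaptic organiser secreted by dentate granule cells, measured 1.33, 0.69 and 0.95 CPM in WT replicates 2, 3 and 4 and 5.89, 13.4 and 28.4 CPM at the lowest, median and highest of the other 9, so the groups lay far apart. Dsp (desmoplakin), also of dentate granule cells, measured 0.50, 0.69 and 1.43 CPM against 2.25 to 16.9. Fibcd1, a receptor of the hippocampal pyramidal layer, measured 12.2, 12.6 and 14.3 CPM against 15.1 to 77.3. The other 9 libraries thus varied more among themselves in these genes than the 3 did. Spink8 was called lower too, at 0.39 to 0.60 against 0.63 to 5.27 CPM.

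Of the 171 lower genes, 20 had the order of Penk and 35 the opposite order. Over all tested genes, 14.0% had the order of Penk and 13.4% the opposite order. Glp2r, a gut-hormone receptor, measured 1.84, 1.83 and 1.67 CPM in WT replicates 2, 3 and 4 against 7.33 to 11.7. Tshz2, a zinc finger gene of deep-layer and retrosplenial cortex, measured 22.6, 21.3 and 24.4 CPM against 54.9 to 173. Grp, gastrin-releasing peptide, measured 3.45, 4.05 and 3.70 CPM against 10.3 to 19.2. In these genes all 3 libraries sat at 1 level, whatever their Penk. Gpr161 (ratio 0.20), a ciliary receptor, Fam160a1 (0.22), Tnxb (0.28), a matrix tenascin, and Thbs4 (0.31), a thrombospondin, completed the 10 strongest lower genes with a mean of at least 5 CPM.

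Calls among the cortical neuron markers fell in the layer lists. In the upper-layer list (layers 2 to 4) 2 of 7 tested genes were called lower, and in the layer V list 1 of 5. In the layer VI list 1 of 5 was called higher. Over all genes 1.12% were called lower and 1.81% higher. Of the 10 pan-excitatory genes 0 were called, with a median log2 ratio of 0.01. Slc17a7, the vesicular glutamate transporter of cortex, measured 1776, 1792 and 1479 CPM in WT replicates 2, 3 and 4 and 1262 to 1643 in the rest. On a level defined as the list mean of log2 CPM centred on each gene, these 10 genes were at 0.09 in WT replicate 2, 0.11 in WT replicate 3 and -0.23 in WT replicate 4, the lowest of the 12. Fezf2, a transcription factor of subcortically projecting layer V neurons, was called lower, with 40.7, 45.0 and 37.7 CPM against 62.6 to 90.6. Whrn, a scaffold protein placed in the upper-layer list, was also lower, with 43.2, 40.7 and 37.7 CPM against 63.6 to 77.0, as was Scnn1a, a sodium channel subunit of layer IV (ratio 0.58). Syt6, a layer VI synaptotagmin that the striatum also expresses, was higher, with 32.5, 38.5 and 51.2 CPM against 19.7 to 32.4. Of 12 interneuron genes and 4 genes of GABA synthesis and transport 0 were called, with median log2 ratios of 0.05 and 0.21.

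Glial and vascular lists were nearly free of calls. Gfap, the intermediate filament of reactive and white-matter astrocytes, was the exception among 9 astrocyte genes, with 81.7, 74.7 and 109.9 CPM in WT replicates 2, 3 and 4 against 154 to 303. Its lowest value outside the 3 was in WT replicate 1, and the 8 KO and MUT (null) libraries held 193 to 303. Counts called in either direction were 0 of 12 for myelin, 0 of 5 for oligodendrocyte precursors, 0 of 10 for microglia, 0 of 8 for endothelium and 0 of 8 for pericytes and smooth muscle, with median log2 ratios of -0.13, -0.02, -0.10, 0.17 and 0.22. The 9 choroid plexus genes tested had 0 called, with list levels of -1.01, -1.66 and 2.48 in WT replicates 2, 3 and 4, which is not the order of Penk. Decorin (Dcn), a matrix protein of the meninges, was called lower, with 6.12, 9.43 and 6.98 CPM against 11.1 to 25.5. Thalamic genes gave Synpo2 higher, with 14.0 CPM in WT replicate 4 and 6.01 and 5.73 in WT replicates 2 and 3, and Slc17a6 lower. The hypothalamic list had 9 of 11 members below the low-count filter, and Trh, a releasing hormone, was higher. The part of any of these tissues in the differences was not tested.

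Over the other 9 libraries, those at or below the threshold, 8 striatal genes were correlated with Penk on log2 CPM. Exact permutation tests were adjusted over the 8 genes. Penk itself set which 9 libraries these are, so the tests are not independent of the choice. The permutations also exchange libraries across the 3 groups, and in the 8 KO and MUT libraries alone 0 of the 8 genes passed. By Pearson's r, 3 passed: Ppp1r1b (r = 0.87, exact permutation p = 0.00293, adjusted p = 0.0187), Drd2 (r = 0.85, exact p = 0.00584, adjusted p = 0.0187) and Adora2a (r = 0.83, exact p = 0.00702, adjusted p = 0.0187). By Spearman's rho only Ppp1r1b passed (rho = 0.87, exact permutation p = 0.00451, adjusted p = 0.0361), and Drd2 and Adora2a each had rho = 0.68 (exact p = 0.0503, adjusted p = 0.134). Genes that did not pass, by Pearson's r, included Rgs9 (0.59), Tac1 (0.56), Drd1 (0.40) and Pde10a (-0.06), with exact permutation adjusted p of 0.179 to 0.873. Their rho were 0.35, 0.17, 0.18 and -0.05, with exact permutation adjusted p of 0.717 to 0.912. Without the 2 libraries farthest from the median Penk, KO replicate 3 and MUT replicate 1, r was 0.78 for Ppp1r1b (exact p = 0.0417, adjusted p = 0.273), 0.59 for Drd2 and 0.72 for Adora2a, and 0 of 8 passed after adjustment, with Ppp1r1b alone under an unadjusted p of 0.05. Single libraries moved the count of calls in both directions: 0 of 8 passed without KO replicate 3, 0 without WT replicate 1 and 6 without MUT replicate 1. KO replicate 3 alone held 40.8 CPM of Penk, 5.32 of Drd2, 6.76 of Adora2a and 116 of Ppp1r1b, the highest of the 9 in each. KO replicate 3 and MUT replicate 1 are also the libraries among the 9 that held choroid plexus RNA.

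The 3 libraries are 3 of the 4 in the WT group, so the labelled comparisons were fitted in edgeR with and without them. Without them WT replicate 1 is the only WT library, and its spread is assumed to be like that of the other groups. Both null groups are compared with the same WT libraries. Grn checks the labels: it measured 57.2, 59.9, 57.6 and 57.0 CPM in WT replicates 1 to 4 and 10.8 to 15.3 CPM in the 8 null libraries. Its log2 difference of KO from WT was -2.20 (adjusted p = 1.31e-07) with all libraries and -2.10 (adjusted p = 0.000857) without the 3, by edgeR's quasi-likelihood test.

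The 3 libraries were picked by Penk, and WT replicate 1, the WT library that remains without them, had the lowest Penk of the 12. The values below for Penk and for genes of the same cells therefore draw on the values that made the choice, and a change of sign for Penk follows from it, so they are a description and the tests support nothing about genotype. By edgeR, 0 of the 44 tested members of the 4 projection neuron lists passed an adjusted p of 0.05 in KO against WT, with or without the 3, where 0.471% and 0.0562% of all genes passed. At an unadjusted p of 0.05, 31 of the 44 passed with the 3 and 6 without. DESeq2 with all 12 libraries called 8 of the 44, all lower in KO: Penk, Adora2a, Drd1, Gpr52, Syndig1l, Dclk3, Meis2 and Rxrg. The median log2 difference of KO from WT was -0.90 for the signalling list with all libraries and 0.10 without the 3. For the direct-pathway list it went from -0.66 to 0.32, for the indirect-pathway list from -1.71 to 1.07 and for the transcription factors from -0.33 to 0.05. MUT against WT gave -0.84 and -0.02, -0.57 and 0.12, -1.76 and 0.64, and -0.39 and -0.05 in the same order of lists, so that 2 of the 4 medians changed sign and the other 2 shrank towards 0. There edgeR called 0 of the 44 (29 at an unadjusted p of 0.05, and 5 without the 3), and DESeq2 called Meis2. Penk itself was 2.11 lower in KO on the log2 scale with all libraries (log2 difference -2.11, edgeR adjusted p = 0.154) and 1.07 higher without the 3 (adjusted p = 0.461). The medians over all genes stayed within 0.01 of 0 in each of these comparisons. The 3 libraries belong to neither group of MUT against KO and enter it only through the sex term and the shared spread. Its list medians, in the same order, were -0.03, -0.06, -0.08 and 0.03 with the 3 in the fit and -0.09, -0.16, -0.28 and -0.06 without. With the 3 in the fit, 0 of the 44 were called by edgeR or DESeq2 and 0 passed an unadjusted p of 0.05, and without them edgeR called 0, with 2 at an unadjusted p of 0.05.

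The count of genes called between KO and WT moved with the libraries fitted, the 3 among them. With all 12 libraries 72 genes passed (22 higher and 50 lower in KO), and without the 3, 9 passed (0.0562%), of which Grn is the only one shared. Leaving out 1 library outside the 3 moved the count as far in several cases: 1 passed without KO replicate 1 or MUT replicate 4, 3 without KO replicate 2, 6 without KO replicate 3 or MUT replicate 3, and 12 without MUT replicate 2. In other cases it stayed near or rose: 63 passed without MUT replicate 1, 89 without KO replicate 4 and 1635 without WT replicate 1. All 72 kept their sign without the 3, and their median log2 difference in the direction of the call was 0.37 with the 3 and 0.27 without. Both fits share WT replicate 1 and the KO libraries, and the first made the calls. The kept signs are therefore not independent support for the calls. WT replicate 1 lay within the range of the 3 picked libraries in 22 of the 72 genes, within the range of the KO libraries in 1, and in neither in 49. Of the 72, 6 were also called higher and 3 lower in the 3 libraries. Htr2a was among the 6, with a log2 difference of -1.53 (edgeR adjusted p = 0.0273) with the 3 libraries and -0.65 (adjusted p = 0.454) without, and its WT replicate 1 value of 12.0 CPM lay nearer to the null libraries (6.48 to 10.4) than to the 3.

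Wdfy1, an endosomal adaptor protein, was 1 of the 3 called lower and behaved otherwise. It measured 25.7 CPM in WT replicate 1, 22.0, 22.5 and 23.2 in WT replicates 2, 3 and 4, and 41.8 to 64.2 in the 8 null libraries, so WT replicate 1 stood with the 3. Its log2 difference was 0.96 (edgeR adjusted p = 0.0273) with the 3 and 1.07 (adjusted p = 0.224) without. Col19a1, a collagen, had log2 differences of -0.42 and -0.40 (adjusted p = 0.0273 and 0.278), and Pdpk1, a kinase of the insulin pathway, -0.31 and -0.30 (adjusted p = 0.0273 and 0.235). In these genes the difference was of similar size in both fits. Why the adjusted p was larger without the 3 was not tested. Fth1 (0.27 and 0.26), a ferritin subunit, and Tmem56 (-0.35 and -0.25) gave adjusted p of 0.0273 with the 3 and 0.271 and 0.435 without.

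Between MUT and WT, 3 genes passed (0.0196%): Grn, Hprt and Wdfy1. Without the 3, 3 passed (0.0187%), of which 2 were shared, Grn and Hprt. MUT against KO had 1 call with all libraries (Hprt, a purine salvage enzyme; 0.00654%) and 31 calls without the 3 (0.194%), although none of the 3 belongs to either group. Leaving the 3 out lowered the residual degrees of freedom from 8 to 5. It also lowered the common biological coefficient of variation, the spread between libraries of a group, from 0.101 to 0.0847. The low-count filter, set by the smallest group, then kept 16002 genes in place of 15298. When WT replicate 1 was left out instead, so that the WT group consisted of the 3 libraries alone, 1635 genes (10.6%) passed in KO against WT, 1066 (6.89%) in MUT against WT and 4 (0.0258%) in MUT against KO. That WT group was picked by Penk, and all of it was 375 days old and labelled male. The counts against WT therefore include the choice and the difference in age, and are no test of genotype.

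**Figure D5:**
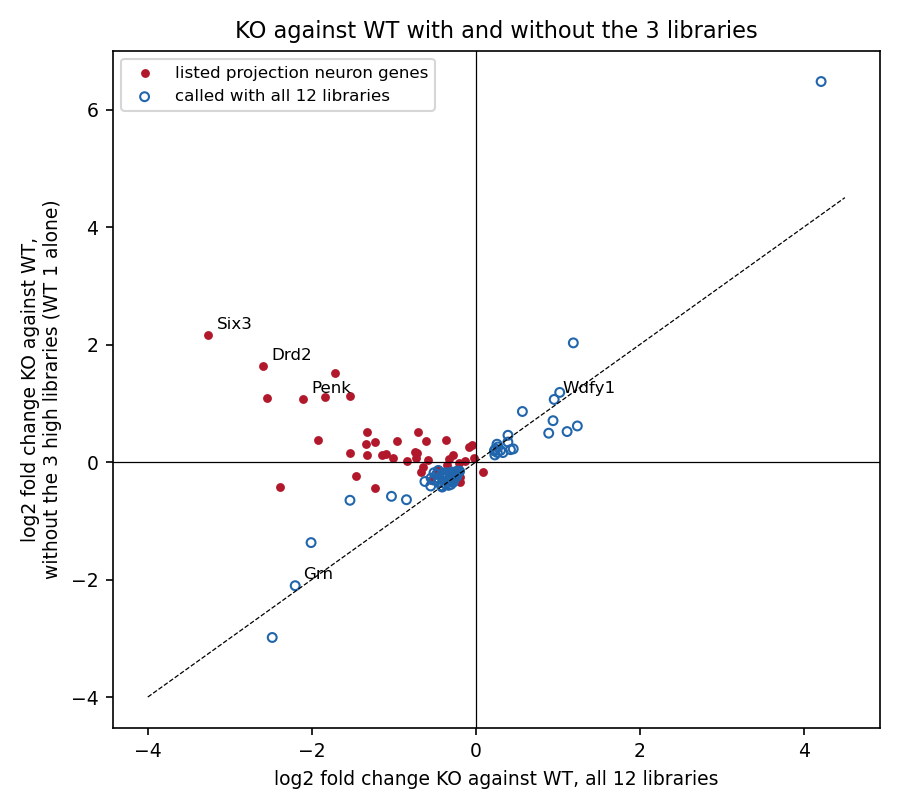
Log2 fold change of KO against WT fitted with all 12 libraries (horizontal) and without the 3 libraries with Penk above 60 CPM, leaving WT replicate 1 alone (vertical), with listed projection neuron genes in red, the 72 genes called with all libraries as open blue circles, and a dashed line of equality. Most red points lie left of 0 and many lie above it (Penk -2.11 and 1.07), while all blue circles keep their sign. Both fits share WT replicate 1 and the KO libraries, and the blue circles were picked by the fit on the horizontal axis.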

How the data were processed

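RNA was measured in 12 mouse cortex libraries. The authors deposited raw read counts per gene with mm10 exon coordinates, and the submitters' processing notes name R 4.1.2 and DESeq2 1.34.0. Which aligner, counter and strand option were used is not given in the sources used here. Reads of overlapping genes may therefore be shared. Groups come from the labels, and columns were matched by name.

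Here, library sizes were column totals (1049 genes without a symbol included) scaled by TMM. Genes were kept by filterByExpr (minimum count 10, total 15, 4 libraries), which left 15298 with all 12 libraries. The filter was run anew for each subset, with the smallest group of that subset, and left 16002 without the 3. edgeR 4.0.16 (R 4.3.3) fitted group and labelled sex by quasi-likelihood with Benjamini-Hochberg adjustment at 0.05, and was tested on simulated counts. DESeq2 1.42.0, other scalings, filters and subsets were alternatives. The 3 libraries, the lists and the tests were chosen with earlier results of these data known.

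Named genes are the 4 projection neuron lists, the 10 highest and 10 lowest called genes with a mean of at least 5 CPM, up to 3 called members of each other list or else its first, the 8 most like Penk, 6 higher genes lowest in WT replicate 4, 6 lost KO calls, and Grn. Some genes of these lists are counted and not reported here by name. Genes named outside these were chosen after their values were seen.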

Additional observations from a re-analysis of the deposited data

Results flagged for a closer look

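Within the labelled groups of 4 libraries, 396 sets of values (the named genes and the list levels in each group) were searched for 1 library apart from the other 3 by Dixon's criterion, and 47 were marked. Chance marks about 1 in 20 groups of values not chosen for a gap. Genes of a tissue are marked together, so these are not 47 separate results. Many named genes were chosen because the 3 picked libraries lay apart from all others, WT replicate 1 among them. Marks of WT replicate 1 in such genes largely follow from that choice, and the chance rate does not apply to them. Values are CPM.

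In WT, replicate 1 was apart from the 3 libraries with Penk above 60 CPM in C1ql2 (8.30), Glp2r (11.00), Gpr161 (17.6), Fam160a1 (8.30), Grp (19.0), Tshz2 (72.4), Tnxb (8.36), Thbs4 (16.1), Fibcd1 (48.9), Trpc4 (34.8), Spink8 (4.18), Whrn (70.4), Fezf2 (90.6) and Dcn (25.5), above the 3 in each. It was below them in Htr2a (12.0) and in the endothelial list level (-0.23). WT replicate 4 was apart in Foxp2 (34.5), Zfp503 (10.2), Ttr (597) and the pan-excitatory list level (-0.23), and WT replicate 2 in the astrocyte list level (-0.12).

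In KO, replicate 3 was above its group in Penk (40.8), Ppp1r1b (116), Rasd2 (72.4), Drd1 (15.1), Drd2 (5.32), Slc17a6 (59.3), Ttr (1838), Wdfy1 (61.5) and the choroid plexus list level (3.66). It is the library nearest below the Penk threshold, and striatal and choroid plexus genes were high in it together. In WT and MUT too, the library highest in Ttr was highest in Penk. These were WT replicate 4 (Ttr 597, Penk 264) and MUT replicate 1 (Ttr 1283, Penk 28.8). However, MUT replicate 1 was the lowest of MUT in Pde1b (134) and Adcy5 (108). The relation of striatal and choroid plexus genes was not tested. KO replicate 2 was apart in Th (1.62).

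In MUT, replicate 1 was below its group in Pde1b (134), Adcy5 (108), Tmem158 (35.3) and Grp (10.3). It was above it in Pdgfrb (32.2), Foxj1 (9.76), Ttr (1283), Tfap2d (0.53) and the list levels of thalamus (0.30), endothelium (0.29), pericytes and smooth muscle (0.64), ependyma (0.85) and meninges (1.21). MUT replicate 2 was apart in Tac1 (15.3), and MUT replicate 4 in Rarb (7.23) and Fos (103).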

How the results depend on the processing

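RLE size factors, library totals alone and no low-count filter kept the counts of higher and lower genes within 1.5 times. With a ratio of 2, 113 genes were higher, 91 lower and 47 higher and in the order of Penk. Against WT replicate 1 alone the counts were 980, 475 and 243 (247 of the 277 higher and 147 of the 171 lower genes shared), against the other libraries labelled male 557, 317 and 169 (258 and 160 shared), and without the 3 libraries highest in choroid plexus genes 426, 295 and 265 (248 and 157 shared). Fewer libraries make non-overlap, and an order of 2 libraries, easier to meet. Leaving out each library gave 275 to 370 higher genes, 173 to 259 lower (259 without WT replicate 2) and 96 to 224 ordered (220, 224 and 202 without WT replicates 2, 3 and 4).

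Correlations with Penk below the threshold gave 0 calls without the 2 farthest libraries and 0 in the 8 null libraries, and 0 to 6 on leaving out each library (0 without WT replicate 1 or KO replicate 3, 6 without MUT replicate 1).

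KO against WT gave 45 calls with no low-count filter, 647 with DESeq2 (8 of them projection neuron list members, against 0 with edgeR), 313 without the sex term and 9 without the 3 libraries, and leaving out each library gave 1 to 1635 (1635 without WT replicate 1, 1 without WT replicate 2, 147 without WT replicate 3, 1 without WT replicate 4, 12, 6 and 1 without MUT replicates 2, 3 and 4, 1, 3 and 6 without KO replicates 1, 2 and 3). The count was 63 without MUT replicate 1 and 89 without KO replicate 4. Without WT replicate 1 all WT libraries are those with Penk above 60 CPM, and 10.6% of genes were called. That count includes the choice by Penk and the difference in age, and is no test of genotype. MUT against WT gave 49 calls with DESeq2, 7 without the sex term and 2 to 1066 on leaving out each library (1066, or 6.89%, without WT replicate 1). MUT against KO gave 15 with DESeq2, 31 without the 3 libraries and 1 to 10 on leaving out each library (4 without WT replicate 1, 10 without WT replicate 3, 2 without KO replicate 2). The cause of these changes was not tested. With the replicate number as a block the 3 comparisons gave 2, 2 and 1 calls. Correlations of same-numbered libraries ran from -0.38 to 0.29. Libraries with different numbers were not compared, so whether the numbers pair the samples was not tested.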
